A study of Mus musculus with 6 samples.

Results

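The G1/S and DNA replication genes are a set of 57 listed genes whose products carry a cell from G1 into S phase and copy its DNA. A gene was measured if a probe set of the arrays named it alone, and the brightest such set over the 6 arrays stood for it. By this rule 56 of the 57 genes were measured, out of 18193 genes on the arrays, and Chaf1a had no probe set of its own. The measured genes comprised 10 cyclins and E2f factors (with the phosphatase Cdc25a), 16 Mcm and origin factors, 14 polymerases and nucleotide enzymes, 5 chromatin-copying factors and 11 checkpoint and repair factors.

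RNA came from hepatocytes prepared from the livers of embryonic day 16.5 mouse embryos. The control embryos, whose genotype the labels give as wild type, were compared with Cnot3KO embryos, which carry floxed Cnot3 and a Cre recombinase driven by the albumin promoter, so that the deletion is limited to cells that use this promoter. Cells of both genotypes were cultured with oncostatin M and dexamethasone, factors that promote maturation of fetal hepatocytes, and were then left untreated or given the transcription inhibitor actinomycin D (ActD) for 6 or 12 h. There was 1 array for each genotype and time, the sources used here do not say whether embryos were pooled, and the study describes the loss of Cnot3 in the fetal liver as incomplete and in these cultures as efficient.

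Entry into S phase begins with D- and E-type cyclins, whose kinases release E2f factors from repression. E2f factors then raise the transcription of genes for licensing origins, building replication forks, supplying nucleotides and repairing forks, and the mRNAs of many of these genes rise and fall once per cell cycle. Cnot3 belongs to the Cnot complex, which shortens poly(A) tails as the opening step of mRNA decay, and fetal hepatocytes still divide while adult hepatocytes are mostly quiescent.

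Values are RMA intensities, a measure of probe brightness that is relative within each array. A change after ActD is thus relative to the other mRNAs of the array, and the typical mRNA stays near its starting value by construction. Brightness also depends on the probes, so that differences in level were taken for a gene between arrays. Between genes brightness served only to choose or order probe sets, to filter dim ones and to sum markers, not to rank mRNA levels. Without replicates a difference at 1 time has no error of its own. Separate probe sets of the same gene varied with an SD of 0.24 (log2) in the genotype difference at 0 h, 0.51 in the change over 12 h in control cells and 0.42 in the difference between genotypes in that change, over 4117 genes, which covers technical error only.

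The cells had the hallmarks of hepatocytes. The 8 measured hepatocyte markers summed to intensities between 161506 and 179814 on the 6 arrays, and none lay under the 20th percentile of its array. Single hepatocyte markers differed between the genotypes (Cnot3KO minus control) by log2 values from -1.50 to 0.33 at 0 h (median -0.05). At 12 h the range was -2.30 to 0.66 (median 0.01), which the sums do not show. The 8 cholangiocyte markers summed to 19528 to 22792 in control and to 34148 to 41376 in Cnot3KO cells, with 1 or 2 of them under that percentile. At 0 h 5 of the 7 tested cholangiocyte markers were higher in Cnot3KO cells and 2 were lower. Summed markers were lower in Cnot3KO cells for macrophages (12 markers, 20525 to 24864 in control and 16787 to 20012 in Cnot3KO cells), erythroid cells (9 markers, 7999 to 9361 and 5200 to 5772), leukocytes (9 markers, 7638 to 9426 and 6502 to 7156) and megakaryocytes (7 markers, 4853 to 7856 and 3575 to 4140). The highest erythroid marker made up most of the erythroid sum, 7745 of 8388 in control and 4854 of 5384 in Cnot3KO cells at 0 h. Over the 3 times 9 of 9 erythroid markers were lower in Cnot3KO cells (median log2 difference -0.25). Endothelial markers (10 markers) summed to 2034, 2128 and 1072 in control and to 1443, 1000.1 and 703 in Cnot3KO cells at 0, 6 and 12 h, lower in Cnot3KO cells at each time, and over the 3 times 10 of 10 were lower there (median log2 difference -0.55). Stellate markers (12 markers) summed to 31413 to 33193 and to 26484 to 32976, and 10 of the 11 tested were lower in Cnot3KO cells (median -0.63). The part of these markers in the differences between genotypes given here was not tested. Fewer cells of a type and less RNA per cell cannot be told apart in bulk RNA. Cnot3 itself had intensities of 296, 214 and 158 in control and of 174, 174 and 146 in Cnot3KO cells at 0, 6 and 12 h, which the limma fit over all times did not call different (adjusted p = 0.182). Its probe set may or may not fall within the deleted exons, so this value does not check the labels.

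Many of the genes share a sequence feature that the arrays do not measure, an E2F motif around the transcription start. RefSeq promoter windows of assembly GRCm38.p6, from 250 bases before to 50 bases after a start, were at hand for 46 of the 56 genes (56 windows). The motif (TTTCCCGC, TTTCGCGC, TTTGCCGC or TTTGGCGC, on either strand, where matches may overlap) was found in 21 of the 56 windows, or 37.5%, against 2.26% of all 32851 windows and 3.21% of those of genes measured on the arrays. It was found in 8 of 15 windows of Mcm and origin factors, 4 of 9 of cyclins and E2f factors, 3 of 9 of checkpoint and repair factors, 2 of 7 of chromatin-copying factors and 4 of 16 of polymerases and nucleotide enzymes. Windows were not matched for base composition, and the GC box (GGGCGG) was also more frequent here, at 71.4% against 35.7% of all windows and 52.3% of those of measured genes.

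The sites of 7 genes are printed because these genes recur in the results, with E2F matches in capitals and the bases around them in lower case, 5′ to 3′ on the strand of the gene and ending at the base before the start where the site lies close to it.
Cdc25a, chr9:109875486-109875545, plus strand: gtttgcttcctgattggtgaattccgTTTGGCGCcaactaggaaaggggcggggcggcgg
E2f3, chr13:29986064-29986100, minus strand: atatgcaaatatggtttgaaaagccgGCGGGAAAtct
E2f7, chr10:110745215-110745274, plus strand: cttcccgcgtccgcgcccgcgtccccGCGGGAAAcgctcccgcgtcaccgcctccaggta
Orc1, chr4:108579401-108579453, plus strand: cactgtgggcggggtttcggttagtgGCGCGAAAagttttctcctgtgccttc
Cdc6, chr11:98907987-98908046, plus strand: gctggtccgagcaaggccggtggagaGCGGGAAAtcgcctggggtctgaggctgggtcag
Mcm6, chr1:128359782-128359841, minus strand: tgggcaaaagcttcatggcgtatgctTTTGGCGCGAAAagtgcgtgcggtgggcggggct
Rfc3, chr5:151651209-151651244, minus strand: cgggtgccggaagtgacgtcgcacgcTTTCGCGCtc
In Mcm6 matches on both strands overlapped, which gives the longer run of capitals. The E2f3 and E2f7 matches lie before genes for E2f factors themselves.

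**Figure D1:**
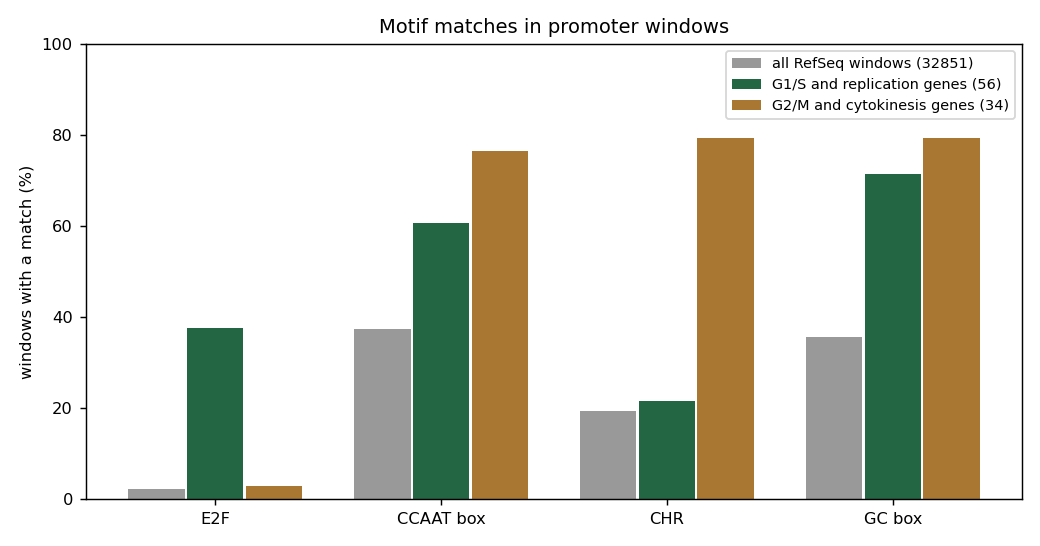
Share of promoter windows (%, y axis) that hold each motif (x axis) among all RefSeq windows (gray), windows of the G1/S and replication genes (green) and windows of G2/M and cytokinesis genes (brown), with the number of windows in the key. The E2F motif is in 37.5% of the green windows and 2.94% of the brown ones, and the CHR in 21.4% and 79.4%.

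A list of G2/M and cytokinesis genes, which act later in the same cycle, had the converse pattern. The E2F motif was in 1 of their 34 windows (2.94%), while the cell cycle homology region (CHR, TTTGAA or TTCGAA) that is typical of G2/M promoters was in 79.4% of them, against 21.4% of the windows of the G1/S and replication genes and 19.2% of all windows. The CCAAT box (CCAAT) was frequent in both, at 60.7% in the G1/S and replication windows and 76.5% in the G2/M windows, against 37.4% of all windows. A match is a run of letters and not a shown binding site.

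Before ActD the G1/S and replication genes were a little higher in Cnot3KO than in control cells. The log2 difference at 0 h had a median of 0.24 over the 56 genes, against 0.04 over all 16110 genes tested (those above the 20th percentile of an array on at least 1 array compared), and 40 of the 56 (71.4%) were higher in Cnot3KO cells, against 55% of all genes. The median was highest in checkpoint and repair factors (0.42), and chromatin-copying factors (0.41), Mcm and origin factors (0.25) and polymerases and nucleotide enzymes (0.20) followed, while cyclins and E2f factors had a median of -0.03. All 5 medians kept their sign when arrays were centered on ribosomal protein genes or on Gapdh. Differences of over 1.5-fold were few, since 4 genes (7.14%) were that much higher against 6.87% of all genes, and 0 were that much lower against 2.99% of all genes. These counts come from single arrays and have no test.

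**Figure D2:**
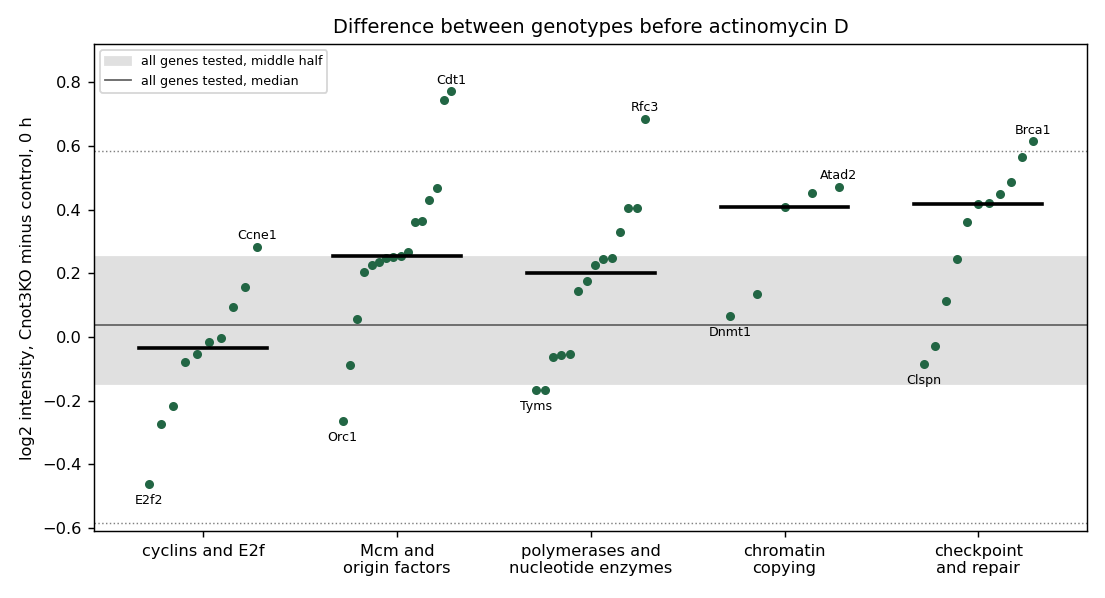
Difference in log2 intensity between Cnot3KO and control cells at 0 h of ActD (y axis) for each gene (green points) by group (x axis), from 1 array per genotype. Black bars are group medians, the gray band and line give the middle 50% and the median (0.04) of all genes tested, and dotted lines mark 1.5-fold; Cdt1, Gins1, Rfc3 and Brca1 lie above the upper one.

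The 4 genes that were over 1.5-fold higher belong to different steps of replication. Cdt1, which loads the Mcm helicase at origins, had intensities of 3153, 1614 and 1684 in control and 5386, 4370.5 and 3762 in Cnot3KO cells at 0, 6 and 12 h. Gins1, a subunit of the GINS complex of the active helicase, had 579, 739 and 417 in control and 969.8, 1227 and 823 in Cnot3KO cells. Rfc3, a subunit of the clamp loader that places Pcna on DNA, had 335, 376 and 283 in control and 539, 664 and 716 in Cnot3KO cells. Brca1, which acts in homologous recombination, had 359, 157 and 84.5 in control and 549.7, 311 and 316 in Cnot3KO cells. Each Cnot3KO value of Cdt1, Gins1, Rfc3 and Brca1 was above the control value of the same time. The folds at 0 h were 1.71 for Cdt1, 1.68 for Gins1, 1.61 for Rfc3 and 1.53 for Brca1. A second bright probe set (above the array median on at least 1 array) gave a log2 difference of 0.98 for Cdt1 and 0.66 for Rfc3, while for Brca1 a second set gave 0.56 and another, near the array median, -0.15.

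The genotype difference was also tested over the 3 times together, with genotype and time as terms. Of the 56 genes 0 passed an adjusted p of 0.05 as higher in Cnot3KO cells (limma, lowest adjusted p = 0.0526, for Cdt1 and Gins1), against 0.703% of all 16499 genes. At an unadjusted p under 0.05, 28 of the 56 (50%) were higher, against 22.4% of all genes, and 3 (Ccnd1, E2f2 and Tyms) were lower, against 11% of all genes. The 28 higher genes were 10 of 11 checkpoint and repair factors, 6 of 16 Mcm and origin factors, 6 of 14 polymerases and nucleotide enzymes, 4 of 10 cyclins and E2f factors and 2 of 5 chromatin-copying factors. At 0, 6 and 12 h 4, 23 and 25 of the 56 genes were over 1.5-fold higher in Cnot3KO cells, against 6.87% of all genes at 0 h, 17.8% at 6 h and 27.4% at 12 h. The count depended on the arrays used. Without the 0 h arrays 25 of the 56 (44.6%) passed the adjusted test, when 24.3% of all genes did. Without the 6 h arrays 0 passed (0% of all genes), and without the 12 h arrays 0 passed (0.255% of all genes). At the unadjusted threshold 29 genes were higher once the 0 h arrays were left out, against 27.6% of all genes, 10 once those at 6 h were, against 10.5%, and 16 once those at 12 h were, against 15.4%.

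During ActD treatment the G1/S and replication mRNAs were, on the median, lost more than the typical mRNA in both genotypes. Over 12 h the log2 change had a median of -0.48 in control and -0.27 in Cnot3KO cells, against 0.15 and 0.08 over all 16499 genes. With arrays centered on Gapdh the medians of the 56 genes were -0.29 and -0.30, so that the gap between the genotypes depended on the scaling. That centering moves all genes alike, by 0.18 (log2) over 12 h in control and by -0.03 in Cnot3KO cells. The medians of all genes thus move by the same amounts, and the distance of the 56 genes from them does not change. Most of the loss came after 6 h, at which the medians without centering were -0.00 in control and 0.08 in Cnot3KO cells. In control cells 15 of the 56 genes (26.8%) were at least 2-fold lower at 12 h than at 0 h, against 15.1% of all genes, and in Cnot3KO cells 6 (10.7%) were, against 4.38% of all genes. The control count included 6 of 11 checkpoint and repair factors, 4 of 16 Mcm and origin factors, 3 of 10 cyclins and E2f factors, 1 of 5 chromatin-copying factors and 1 of 14 polymerases and nucleotide enzymes. With 6 h in place of 12 h the counts were 9 and 2, against 8.99% and 2.67% of all genes.

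Averaged over the genotypes, 6 of the 56 genes (10.7%) fell by 12 h at an adjusted p under 0.05 (limma), against 4.53% of all genes. They were Brip1, a helicase that binds Brca1 (log2 change -1.40 ± 0.17 SE, adjusted p = 0.0205), Blm, the helicase mutated in Bloom syndrome (-1.37 ± 0.20, adjusted p = 0.0278), E2f8, a repressor of E2F targets (-1.57 ± 0.24, adjusted p = 0.0296), Cdc6, which loads the Mcm helicase (-1.77 ± 0.30, adjusted p = 0.0353), Atad2, a bromodomain ATPase of replicating chromatin (-1.75 ± 0.30, adjusted p = 0.0360), and Dnmt1, the maintenance DNA methyltransferase (-0.89 ± 0.18, adjusted p = 0.0465). At an unadjusted p under 0.05, 22 genes were lower at 12 h (15.8% of all genes), and 1, Ccnd1, was higher (14% of all genes). Without the 6 h arrays 0 genes passed the adjusted test as lower (0% of all genes) and 17 were lower at the unadjusted threshold, against 11.4% of all genes.

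**Figure D3:**
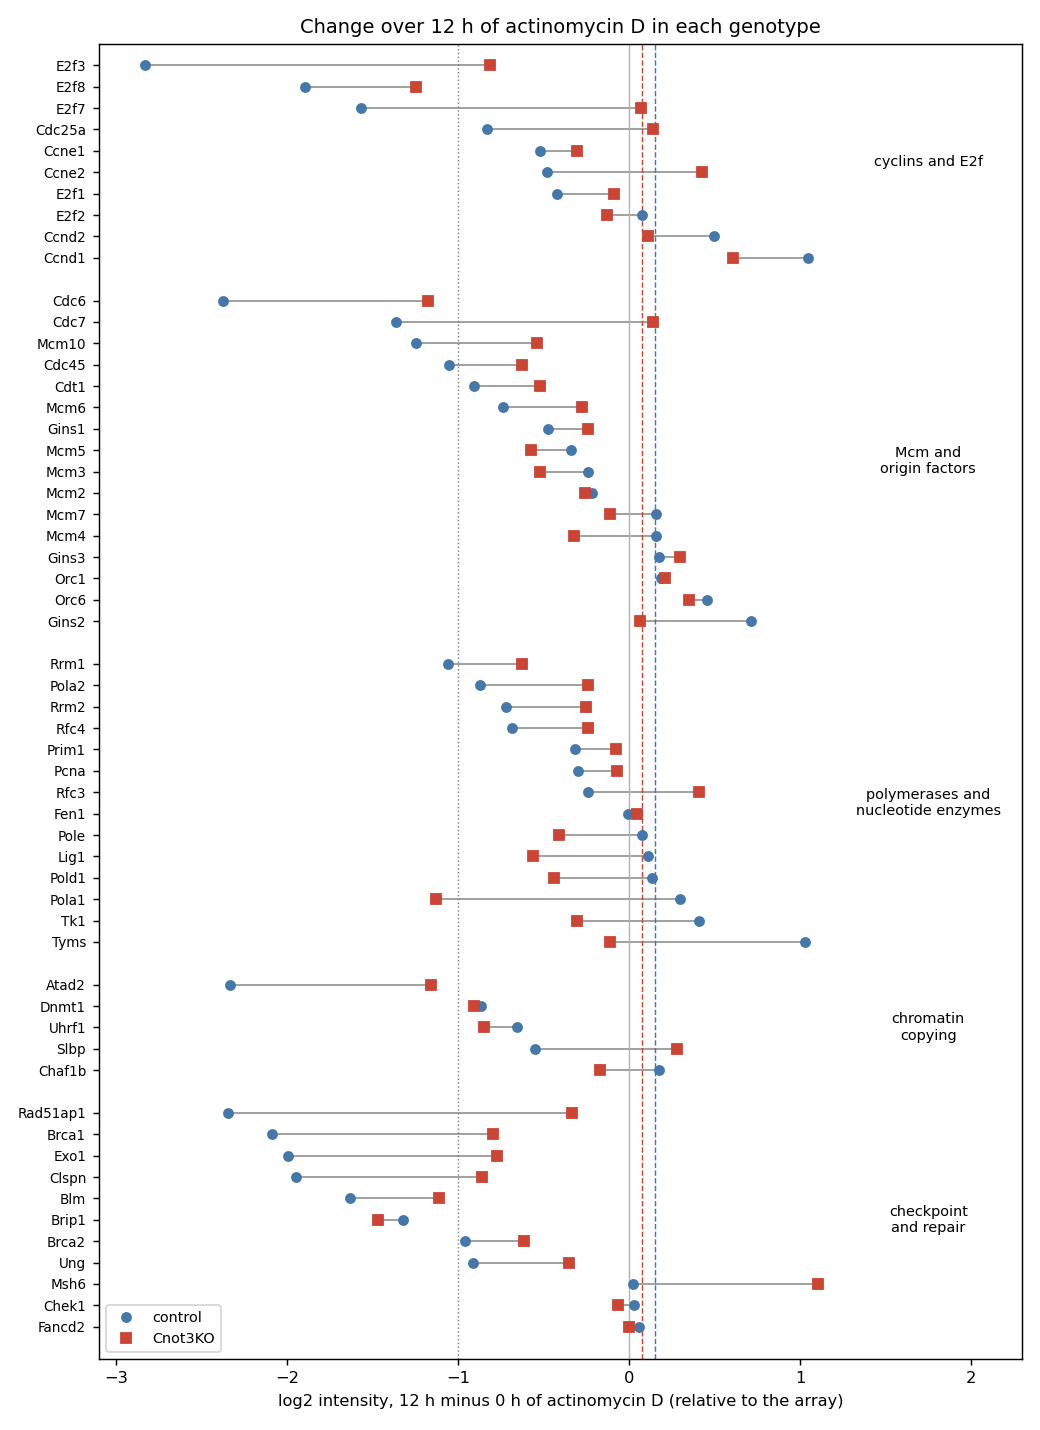
Change in log2 intensity over 12 h of ActD (x axis) for each of the 56 genes (y axis, by group), in control (blue circles) and Cnot3KO cells (red squares), from 1 array per genotype and time. Dashed lines are the medians of all genes tested (0.15 and 0.08), and the dotted line marks a 2-fold lower value; the longest gray lines are those of E2f3, Rad51ap1 and E2f7, with the control value to the left.

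For a subset of the genes the loss over 12 h was smaller in Cnot3KO than in control cells, without passing the adjusted test. A half-life was taken from a straight line through the 3 log2 values and counted as longer where that of the other genotype was at most 12 h. It was over 2-fold longer in Cnot3KO cells, or the mRNA showed no loss there, for 10 of the 56 (17.9%) against 11.4% of all genes, and over 2-fold longer in control cells for 1, Pola1, against 0.673% of all genes. The 10 were E2f3 and E2f7, the origin factors Cdc6, Cdc7 and Mcm10, the chromatin factor Atad2, and the checkpoint and repair factors Brca1, Clspn, Exo1 and Rad51ap1. Among genes that were at least 2-fold lower at 12 h in control cells, these are 10 of 15 (66.7%), against 1883 of 2485 (75.8%) over all genes. In the test of the genotype by time term 0 of the 56 passed an adjusted p of 0.05 (limma, lowest adjusted p = 0.179), as did 0 of all genes (0%). At an unadjusted p under 0.05 the loss was slower in Cnot3KO cells for 11 genes, against 12.8% of all genes, and quicker for 2, Pola1 and Tyms, against 4.95% of all genes. The 0 h arrays enter both this difference and the difference before ActD. With all probe sets of a gene averaged the half-life count was 4, against 7.57% of all genes, and with arrays centered on Gapdh it was 6, against 8.64% of all genes. The median difference in change over the 56 genes was 0.24, but 0.025 when centered on Gapdh and 0.13 with probe sets averaged.

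**Figure D4:**
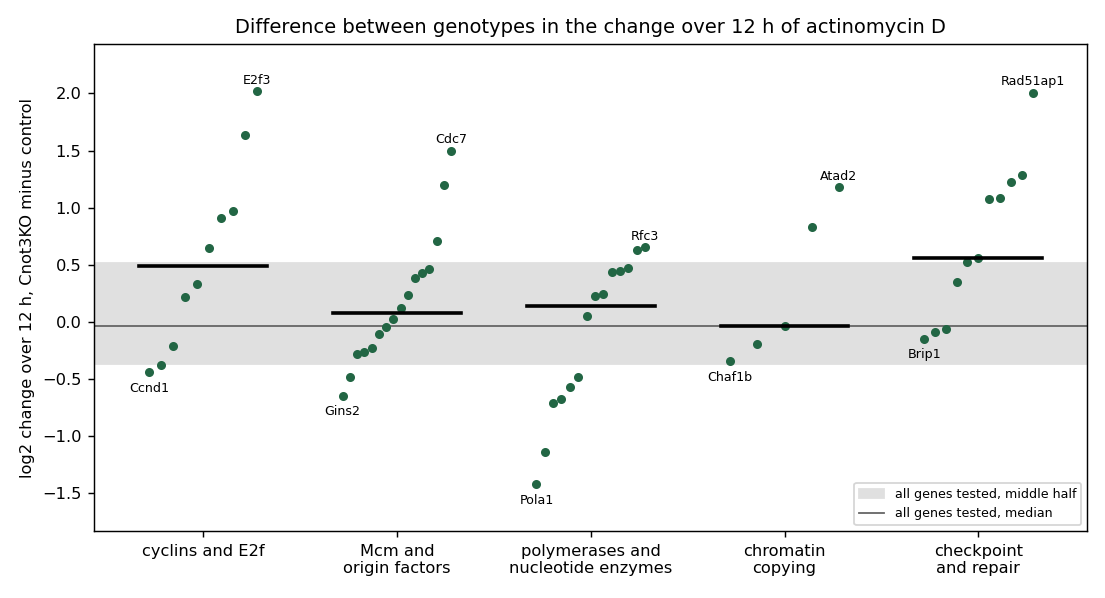
Difference between Cnot3KO and control cells in the log2 change over 12 h of ActD (y axis) for each gene (green points) by group (x axis). Values above 0 mean less loss or more rise in Cnot3KO than in control cells. Black bars are group medians, and the gray band and line give the middle 50% and the median (-0.04) of all genes tested; values span from -1.42 for Pola1 to 2.02 for E2f3.

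Cyclins and E2f factors differed among themselves more after ActD than before it, with log2 differences between genotypes from -0.46 (E2f2) to 0.28 (Ccne1) at 0 h and differences in change from -0.44 (Ccnd1) to 2.02 (E2f3). Their median log2 change over 12 h was -0.50 in control and -0.01 in Cnot3KO cells, and the difference in change had a median of 0.49 (0.28 when centered on Gapdh). The D-type cyclins stood at the other end from E2f3 and E2f7. Ccnd1, the cyclin that answers growth signals, had intensities of 1245, 2644 and 2575 in control and 1071, 1755 and 1629 in Cnot3KO cells at 0, 6 and 12 h. Ccnd2, a second D-type cyclin, had 812, 1322 and 1144 in control and 809, 927 and 875 in Cnot3KO cells. Both cyclins were brighter after ActD than before it in both genotypes, and at 6 and 12 h both were lower in Cnot3KO than in control cells. At 0 h the log2 difference was -0.22 for Ccnd1, where a further bright probe set gave 0.25, and -0.00 for Ccnd2.

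Ccne1, which drives S phase entry with Cdk2, had intensities of 546, 591 and 380.0 in control and 665, 734 and 538 in Cnot3KO cells, and its log2 difference in change was 0.22. Ccne2 was level at 0 h, with a log2 difference of -0.02, and 1.86-fold higher in Cnot3KO cells at 12 h. Cdc25a, which activates Cdk2, had 964, 700.1 and 542 in control and 912, 968 and 1006 in Cnot3KO cells, so that control values were lower at each later time and Cnot3KO values were not. The half-life of Cdc25a in control cells was 14.4 h, no loss was seen in Cnot3KO cells, and a second bright probe set gave a log2 difference in change of 1.46 beside 0.97 here. The difference of Cdc25a did not pass the test (limma, adjusted p = 0.197).

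Among the E2f factors, E2f3, an activator, had 426, 67.2 and 59.8 in control and 353, 161 and 201 in Cnot3KO cells, with half-lives of 4.24 h in control and 14.8 h in Cnot3KO cells. E2f7, an atypical E2f that represses E2F targets, had 429.6, 196 and 145 in control and 479, 524 and 502 in Cnot3KO cells. Its half-life was 7.66 h in control cells, and its Cnot3KO values at 6 and 12 h were not below that at 0 h. E2f8, its partner repressor, had 456, 204 and 122 in control and 486, 367 and 205 in Cnot3KO cells, with half-lives of 6.33 and 9.62 h, so that E2f8 was at least 2-fold lower at 12 h in both genotypes. E2f7 and E2f8 differed by 0.16 and 0.09 (log2) at 0 h and were 3.46- and 1.67-fold higher in Cnot3KO cells at 12 h. The difference in change was 1.63 ± 0.37 (log2, SE) for E2f7 and 2.02 ± 1.01 for E2f3 (limma, adjusted p = 0.181 and 0.345). The E2f3 set used here gave -2.83 for the change in control cells and 2.02 for the difference, while a second E2f3 set, dimmer at 0 h, gave -0.32 and 0.34. E2f7 had a single set.

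The activator E2f2 had 238, 219 and 251 in control and 173, 181 and 158 in Cnot3KO cells, and was lower in Cnot3KO cells at each time. E2f1, the founding activator, had a log2 difference of -0.05 at 0 h and a difference in change of 0.33, and its second set gave 0.06 for the latter.

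**Figure D5:**
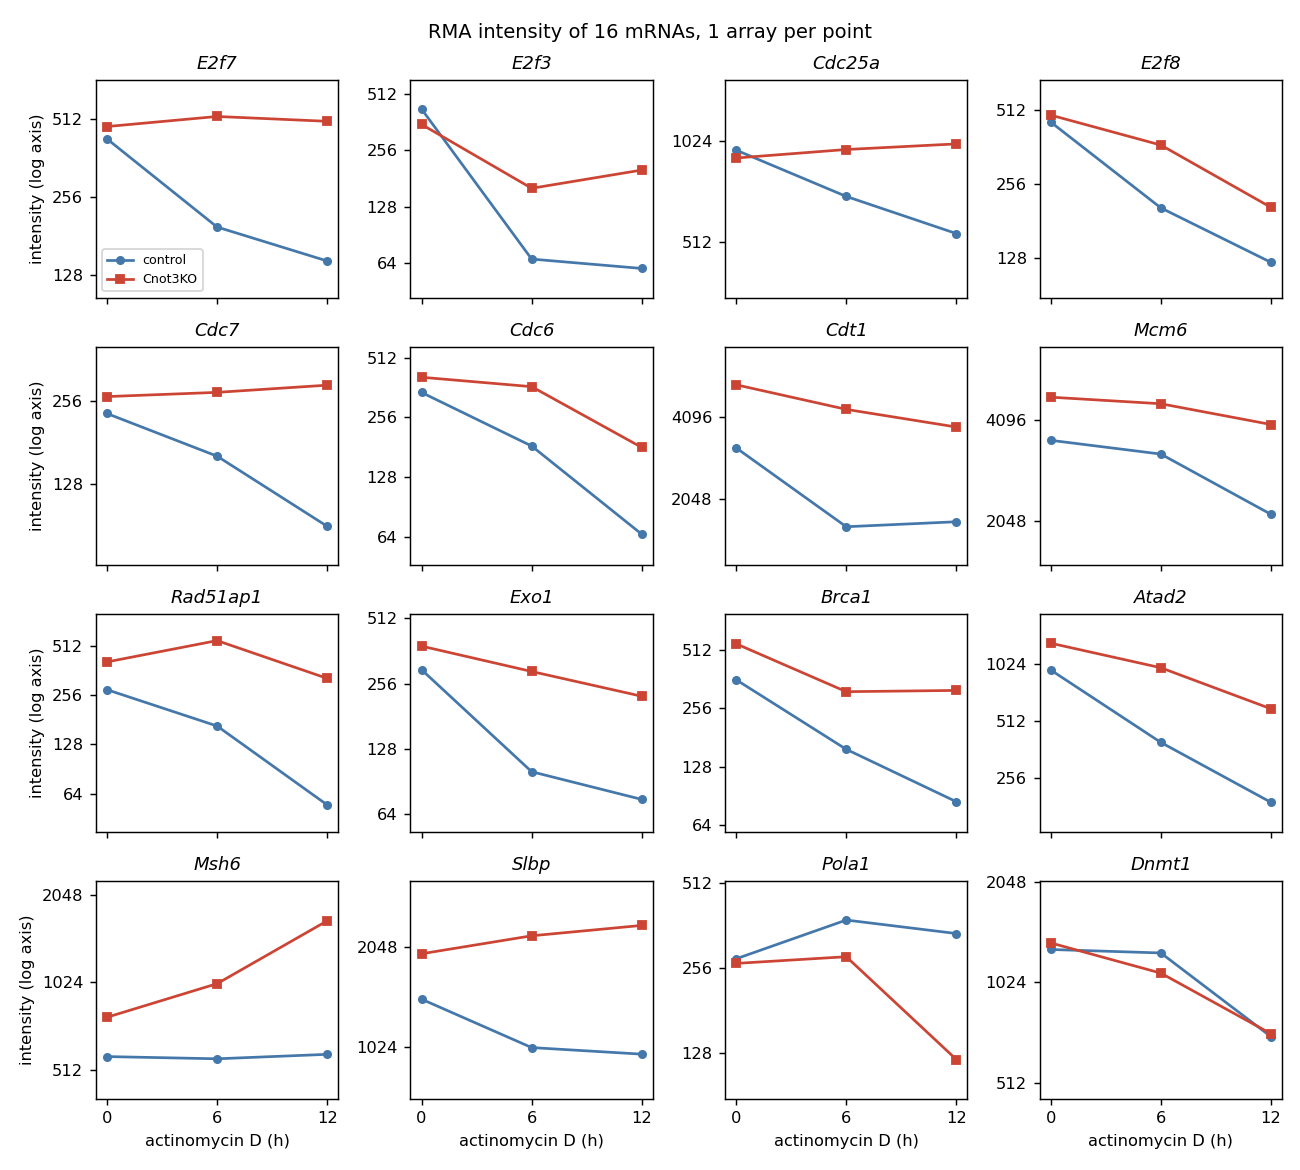
RMA intensity (y axes, log scale) at 0, 6 and 12 h of ActD (x axes) for 16 of the genes in control (blue circles) and Cnot3KO cells (red squares), where each point is 1 array and lines only join them. Cnot3KO values of E2f7, Cdc25a and Cdc7 stay near their start while control values are lower at each later time, Dnmt1 is lower at 12 h in both, and Pola1 is lower in Cnot3KO cells at 12 h.

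Among Mcm and origin factors, the helicase core and several of the factors that load and fire it had different values after ActD. Mcm2 to Mcm7 form the ring that unwinds DNA, and the log2 difference at 0 h was 0.27 for Mcm2, 0.23 for Mcm3, 0.25 for Mcm4 and 0.25 for Mcm5. Mcm6 had intensities of 3564, 3241 and 2138 in control and 4799, 4586 and 3974 in Cnot3KO cells, and Mcm7, the brightest probe set of the group, 4476, 5094 and 4993 in control and 6185, 6578 and 5732 in Cnot3KO cells. On the probe sets used all 6 subunits were higher in Cnot3KO cells at 0 h, while a second bright set of Mcm4 was lower there (-0.38). Their differences in change over 12 h were -0.04 for Mcm2, -0.28 for Mcm3, -0.48 for Mcm4, -0.23 for Mcm5 and -0.27 for Mcm7. Only Mcm6 had a positive value, 0.46, on the sets used. None of the 6 was at least 2-fold lower at 12 h in either genotype.

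Several loading and firing factors were at least 2-fold lower at 12 h in control cells. Cdc6, which joins the origin recognition complex to load the ring, had 342, 184 and 66.1 in control and 408, 366 and 181 in Cnot3KO cells, with half-lives of 5.06 h in control and 10.2 h in Cnot3KO cells. Cdc7, the kinase that fires licensed origins, had 232, 162 and 90.1 in control and 267, 276 and 293 in Cnot3KO cells, with a half-life of 8.81 h in control cells and no loss in Cnot3KO cells. At 12 h Cdc6 was 2.73-fold and Cdc7 3.26-fold higher in Cnot3KO cells, and the difference in change did not pass the test for either (limma, adjusted p = 0.253 and 0.179). Mcm10, which helps to activate the helicase, had half-lives of 9.64 and 22.2 h, and Cdc45, a cofactor of the active helicase, 11.4 and 19.1 h. Cdc6 had a single probe set, while a dimmer second set of Cdc7 gave a difference in change of 0.18 beside 1.5 here. For Cdc45 a dimmer second set had the opposite signs. Its log2 change in control cells was 0.42 beside -1.05 here, and its difference in change -0.30 beside 0.43. On the sets used Cdt1 and Gins1 were the highest of the group at 0 h relative to control. Half-lives in control and Cnot3KO cells were 13.3 and 23.2 h for Cdt1 and 25.4 and 50.6 h for Gins1, so that neither passed the 2-fold limit.

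The remaining origin and GINS genes were not lost in control cells. Gins2 had a log2 change over 12 h of 0.71 in control and 0.07 in Cnot3KO cells, Gins3 0.18 and 0.30, and Orc6, a subunit of the origin recognition complex, 0.46 and 0.35. Orc1, the largest subunit of that complex, had 2 probe sets that disagreed. The set used here had 163, 178 and 186 in control and 136, 151 and 158 in Cnot3KO cells, nearly flat. The second set, of similar brightness, had 126, 83.0 and 39.1 in control and 274, 276 and 259 in Cnot3KO cells, and no choice between them can be made from these arrays. The median difference in change over the 16 genes was 0.07, and -0.14 when centered on Gapdh, so the group as a whole has no settled direction.

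Polymerases and nucleotide enzymes had the smallest median change of the 5 groups in control cells, a log2 change over 12 h of -0.12 (0.06 when centered on Gapdh) and of -0.25 in Cnot3KO cells. The half-life was over 2-fold longer in Cnot3KO cells for 0 of the 14 genes, and the median difference in change was 0.14, or -0.08 when centered on Gapdh. Rrm2, the regulated subunit of ribonucleotide reductase, had intensities of 8417, 7271 and 5107 in control and 7502, 8474 and 6294 in Cnot3KO cells. Its partner Rrm1 had 1669, 1568 and 802 in control and 1979, 2028 and 1283 in Cnot3KO cells, and was the single gene of the group at least 2-fold lower at 12 h in control cells. Pcna, the sliding clamp of the polymerases, had 7155, 7795 and 5826 in control and 9470.4, 10255 and 9005 in Cnot3KO cells, and Fen1, which trims Okazaki fragments, 2771, 3208 and 2759 in control and 3239, 3478 and 3347 in Cnot3KO cells. The log2 change over 12 h was -0.30 and -0.07 for Pcna and -0.01 and 0.05 for Fen1 in control and Cnot3KO cells, and Pcna was 1.32-fold higher in Cnot3KO cells at 0 h.

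The polymerase alpha-primase complex starts each new strand, and its subunits had unlike values. Pola1, its catalytic polymerase, had 276, 378 and 339 in control and 266, 281 and 122 in Cnot3KO cells, and the Cnot3KO array at 12 h was the lowest of the 6. Pola2, its regulatory subunit, had 376, 333 and 206 in control and 498, 533 and 422 in Cnot3KO cells, and was higher in Cnot3KO than in control cells at each time. Prim1, the primase, had a log2 difference of 0.25 at 0 h and 0.49 at 12 h. The difference in change was -1.42 ± 0.55 (log2, SE) for Pola1 and 0.63 ± 0.36 for Pola2, and passed the adjusted test for neither (limma, adjusted p = 0.267 and 0.389). Pola1 had 1 bright probe set, and its value rests on 1 array.

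Other enzymes of strand synthesis also had lower values in Cnot3KO than in control cells at 12 h. The log2 difference between genotypes at 12 h was -0.25 for Pold1 and -0.55 for Pole, the catalytic subunits of polymerases delta and epsilon, -0.53 for Lig1, which joins Okazaki fragments, and -0.77 for Tk1, the thymidine kinase of S phase. At 0 h the corresponding values were 0.33, -0.06, 0.14 and -0.06. Tyms, the thymidylate synthase, had 29.9, 60.4 and 60.9 in control and 26.6, 29.3 and 24.7 in Cnot3KO cells, below the array medians of 69.7 to 72.4 in every sample and thus dim. The clamp loader subunits went the other way, since Rfc4 had a log2 difference of 0.17 at 0 h and 0.62 at 12 h and Rfc3 0.69 and 1.34.

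The chromatin-copying factors had the lowest median change of the 5 groups in Cnot3KO cells, with a log2 change over 12 h of -0.85, against -0.65 in control cells. Dnmt1 had intensities of 1284, 1254 and 704 in control and 1344, 1091 and 718 in Cnot3KO cells, with half-lives of 13.8 and 13.3 h. Uhrf1, which brings Dnmt1 to newly copied DNA, had 1223, 1261 and 777 in control and 1342, 1389 and 746 in Cnot3KO cells, with half-lives of 18.3 and 14.2 h. Dnmt1 and Uhrf1 thus had half-lives that differed little between the genotypes. Atad2 had 957, 395 and 189.9 in control and 1328, 984 and 596 in Cnot3KO cells, with half-lives of 5.14 and 10.4 h (difference in change 1.18 ± 0.30 SE, limma adjusted p = 0.189). Slbp, which binds the stem-loop of histone mRNAs, had 1426, 1021 and 976 in control and 1951, 2209 and 2373 in Cnot3KO cells, lower at each later time in control and higher at each later time in Cnot3KO cells, while a dimmer second set gave the opposite sign, -1.11 beside 0.83 here. Chaf1b, a subunit of the histone chaperone CAF-1, had a log2 difference of 0.41 at 0 h and 0.06 at 12 h. The median difference in change of the 5 genes was -0.04, so the values of Atad2 and Slbp are not those of the group.

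Checkpoint and repair factors had the quickest loss in control cells and the greatest median difference in change of the 5 groups. Their median log2 change over 12 h was -1.32 in control and -0.61 in Cnot3KO cells, and the difference in change had a median of 0.56 (0.35 when centered on Gapdh). Rad51ap1, a DNA-binding factor of homologous recombination, had intensities of 277, 166 and 54.5 in control and 409, 553 and 324 in Cnot3KO cells. Its Cnot3KO values were above every control value. The difference at 12 h was 5.95-fold, the largest of the 56 genes on the probe sets used, which leaves out the second Orc1 set. Of 3 further bright probe sets of Rad51ap1, the differences in change were 1.46, 1.31 and -0.03 beside 2.01 here.

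Brca1, given above, had half-lives of 5.75 h in control and 15 h in Cnot3KO cells, Exo1, a nuclease of resection and mismatch repair, 6.03 and 15.6 h, and Clspn, which activates the kinase Chek1 at stalled forks, 6.16 and 13.9 h. All 3 kept between 55.1 and 58.7% of their starting level at 12 h in Cnot3KO cells, and between 23.5 and 25.9% in control cells. The other probe sets of Brca1, Exo1 and Clspn were dimmer, and for each gene at least 1 of them had a difference in change of opposite sign. None of the differences passed the adjusted test (limma, adjusted p = 0.219 for Brca1, 0.266 for Exo1, 0.255 for Clspn and 0.197 for Rad51ap1).

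Both helicases were at least 2-fold lower at 12 h in both genotypes. Blm had 173, 113 and 55.9 in control and 242, 185 and 112 in Cnot3KO cells, with half-lives of 7.36 and 10.8 h, and Brip1 had 95.3, 47.0 and 38.1 in control and 127, 61.9 and 46.0 in Cnot3KO cells, with 9.07 and 8.16 h. Brca2, which acts with Brca1 in repair, had half-lives of 12.5 and 19.5 h, and Ung, which removes uracil from DNA, 13.1 and 34.2 h.

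On the probe sets used, Msh6, Chek1 and Fancd2 were not lower at 12 h than at 0 h in control cells. Msh6, a mismatch recognition subunit, had 568, 558 and 578 in control and 776, 1013 and 1667 in Cnot3KO cells, flat in control and higher at each later time in Cnot3KO cells (difference in change 1.08 ± 0.30 SE, limma adjusted p = 0.193, from a single probe set). Chek1, the checkpoint kinase, had 367, 435 and 374 in control and 491, 668 and 469 in Cnot3KO cells, higher in Cnot3KO cells at each time with a difference in change of -0.09. Fancd2, of the Fanconi anemia pathway, differed by -0.03 at 0 h and by -0.06 in change. A dimmer second set of Fancd2 had a log2 change of -0.48 in control cells and a difference in change of 0.30.

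Other G1/S and replication genes from a second list, 46 measured, had a smaller median difference before ActD and a larger one in change. Their median log2 difference was 0.12 at 0 h and 0.54 in change over 12 h, against 0.24 for both in the 56 genes on the same scale. Centering on Gapdh, which took the median change difference of the 56 genes to 0.025, moves that of both lists by the same amount. These contrasts were not tested. At 0 h 3 of the 46 were past 1.5-fold as higher in Cnot3KO cells and 1 as lower. At least 2-fold lower values at 12 h were found for 20 in control and 2 in Cnot3KO cells, and 19 of the 46 (41.3%) had an over 2-fold longer half-life in Cnot3KO cells. In the adjusted test 3 fell by 12 h (limma): the primase subunit Prim2 (log2 change -1.14, adjusted p = 0.0402), the fork protection factor Timeless (-1.34, adjusted p = 0.0483) and Dscc1, a subunit of an alternative clamp loader (-2.04, adjusted p = 0.0409). None of the 46 passed the adjusted genotype or decay test (limma). At an unadjusted p under 0.05, 18 were higher in Cnot3KO cells and 13 had a higher log2 change there. Of the 39 G2/M and cytokinesis genes, 6 were over 1.5-fold higher at 0 h and 15 (38.5%) had an over 2-fold longer half-life in Cnot3KO cells. The half-life count of the 56 genes, 17.9%, was the lowest of the 3 lists, a difference that was not tested.

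The E2F motif was about as frequent in genes with longer half-lives in Cnot3KO cells as in the others. It was in 4 of 10 windows of genes with an over 2-fold longer half-life (40%) and in 17 of 46 windows of the others (37.0%). Of 35 genes with at least 2 bright probe sets, all sets shared the sign of the difference at 0 h for 26 and of the difference in change for 24. Over the 3 times 33 of the 56 genes (58.9%) were higher in Cnot3KO cells on each pair of arrays, against 30.5% of all genes. On each pair 9 (16.1%) were lower, against 29.2% of all genes: Ccnd1, Ccnd2, E2f2, Fancd2, Orc1, Pola1, Pole, Tk1 and Tyms. Both counts rest on the sets used. The second Orc1 set, of similar brightness, was higher in Cnot3KO cells at each time. Further bright sets of Ccnd1 and Ccnd2 were higher there at 0 h (log2 0.25 and 0.05), and Tyms was dim.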

How the data were processed

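As the labels and methods state, the authors hybridized total RNA of 6 samples to Affymetrix Mouse Genome 430 2.0 arrays and computed probe set values with RMA (program version: not given in the sources used here), 1 per probe set. The deposited values are linear intensities of 45037 probe sets. RMA equalizes array distributions, so a uniform loss of mRNA is invisible. Log2 was taken here.

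Gene names came from the platform annotation (34945 with 1 symbol, 932 with several, 9160 with none), and 99.4% of gene identifiers were found in RefSeq GRCm38.p6. Each of 18193 genes took its brightest set. Genes above the 20th percentile of an array on at least 1 array were tested, 16499 over all arrays and 16110 at 0 h, and all 56 measured genes passed both filters.

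Differences at 0 h (1.5-fold) and losses over 12 h (2-fold) were counted without a test. Genotype and the change at 12 h were tested with limma 3.58.1 in R 4.3.3 (genotype and time as terms), and decay as the genotype by hours term, with 2 residual degrees of freedom, on data whose arrays at different times stand in for replicates. Separate cultures are not stated, so no p-value measures spread between replicates. The genotype and 12 h tests take as error what genotype and time leave over, which includes any difference in decay. The decay test takes as error the departure from a straight line over the hours. P-values were adjusted by Benjamini-Hochberg over all genes. The models were tested on simulated data. The genes and lists were chosen with earlier results of these data known. In each group intensities on all arrays are given for the 3 brightest at 0 h in control cells, the 2 that differed most at 0 h, the 2 lost most in control cells and the 2 that differed most in change, and every measured gene is named. Promoter windows were searched on both strands with Python 3.11.15.

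Alternatives were other filters, all probe sets of a gene averaged, sets without a shared-sequence suffix, log2(intensity + 16), centering on 27 ribosomal protein genes or on Gapdh (whose brightest set also names its pseudogenes), other thresholds, an intensity trend in limma, and arrays or times left out.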

Additional observations from a re-analysis of the deposited data

Results flagged for a closer look

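For 7 genes the 6 h and the 12 h value both lay on one side of the 0 h value in control cells and both on the other side in Cnot3KO cells. In 5 of them control values were lower and Cnot3KO values higher than at 0 h, with log2 differences in change over 12 h (Cnot3KO minus control) of 1.63 for E2f7, 1.5 for Cdc7, 0.97 for Cdc25a, 0.91 for Ccne2 and 0.83 for Slbp. For Lig1 (-0.67) and Pold1 (-0.57) the control values were higher and the Cnot3KO values lower. Opposite directions on single arrays are no test of the difference. The share of all genes with this pattern was not computed, so the count of 7 cannot be set against it. In the limma test of decay none of the 7 passed an adjusted p of 0.05, and E2f7, Cdc7, Cdc25a and Slbp were under an unadjusted 0.05.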

How the results depend on the processing

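Of 106 alternative values for counts and medians, 82 stayed within 1.5 times the main value and 24 moved by more. The median difference in change over the 56 genes, 0.24 (log2), was 0.025 centered on Gapdh, 0.13 with all probe sets averaged, 0.16 with sets lacking a shared-sequence suffix and 0.10 at 6 h. With all probe sets of a gene averaged, 6 genes were at least 2-fold lower at 12 h in control and 3 in Cnot3KO cells, 4 had an over 2-fold longer half-life in Cnot3KO cells, and 9 were higher in Cnot3KO cells in the adjusted genotype test (3 with sets lacking a shared-sequence suffix). Centering on Gapdh moved all genes by 0.18 (log2) over 12 h in control and by -0.03 in Cnot3KO cells. It gave 6 genes with a longer half-life, 13 higher by genotype and 11 lower at 12 h (adjusted), and 6 with a higher change in Cnot3KO cells (unadjusted). Centering on ribosomal protein genes moved all genes by -0.11 and -0.08. An intensity trend in limma gave 11 higher by genotype. Where a count in this section has no share over all genes here or above, that share was not computed. Such a count shows only dependence on the processing and is no result about the 56 genes. Without the 0 h arrays 25 passed this test. At the unadjusted threshold 10 did without the 6 h arrays and 16 without the 12 h arrays, and without the 6 h arrays 0 were lower at 12 h (adjusted). At 6 h in place of 12 h, 9 genes in control and 2 in Cnot3KO cells were at least 2-fold lower. At a 2-fold limit 0 genes differed at 0 h, and at a 1.5-fold limit for decay the counts were 25, 15 and 16 (control, Cnot3KO, longer half-life). For single genes the log2 differences at 0 h of the 4 genes over 1.5-fold stayed within the spread between probe sets, and 15 differences in change over 10 genes moved by more. No paired analysis was possible by replicate number because the labels give none; the genotype test takes time as a term, which sets the control and Cnot3KO arrays of a time against each other. The number of arrays limits the precision.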
